A study of Phalaenopsis x intermedia with 4 samples.

Results

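Among 90 F1 progeny of a cross between Phalaenopsis aphrodite (Pa) and Phalaenopsis equestris (Pe), 30 plants had missing genotype calls at more than 50% of single nucleotide polymorphisms (SNPs), and they are described here beside the other 60 progeny. The 30 plants were chosen on their missing calls over 113517 SNPs with 2 base alleles on chromosomes 1 to 19, so the amount of missing data is a description of the groups and was not tested. They are called sparsely called and the others well called. The sparsely called plants included PaPe1, PaPe4, PaPe15, PaPe18, PaPe22, PaPe29, PaPe33, PaPe37, PaPe38, PaPe39, PaPe40, PaPe43, PaPe47, PaPe51, PaPe59, PaPe65, PaPe66, PaPe68, PaPe69, PaPe70, PaPe71, PaPe75, PaPe78, PaPe79, PaPe92, PaPe93 and PaPe96.

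All plants of both groups belong to the hybrid P. Intermedia (Phalaenopsis x intermedia) from this 1 cross, were genotyped from leaf DNA with no treatment named in the labels, and are each 1 column of a table that also holds Pa and Pe. DNA was cut with HinP1I or with ApeKI, each paired with HaeIII, and sequenced as 4 multiplexed libraries on plates 1 and 2 of each enzyme pair. The table merges the enzyme pairs and carries no read counts, so the depth behind a call is unknown, and the plate or library of a plant cannot be read from it. Each plant has 1 column, so the values below measure the spread between plants and not between repeat libraries of a plant.

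Genotyping-by-sequencing (GBS) reads only the ends of restriction fragments, and a fragment that is cut, amplified or sampled too thinly in a plant leaves a missing call. At low depth a heterozygous plant may also be read as a homozygote, when the reads happen to show only 1 of its alleles. In an F1 of outcrossing orchids, a SNP that is heterozygous in 1 parent only is expected to give heterozygotes and homozygotes in equal numbers, and a SNP at which the parents are opposite homozygotes is expected to give heterozygotes only.

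The gap between the groups was wide. Missing calls over all SNPs ranged from 69.3% in PaPe69 to 96.3% in PaPe93 among the sparsely called plants, with a median of 93.3%. In the well-called plants the median was 2.40% and the highest value 40.3%, in PaPe6. Just inside the limit of 50% lay PaPe69 at 69.3% and PaPe68 at 91.9%, and just outside it lay PaPe6 at 40.3% and PaPe87 at 25.8%. Next to these, PaPe63 (22.8%), PaPe89 (22.0%) and PaPe64 (19.1%) were the only other well-called plants over 10%.

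The missing calls of the sparsely called plants fell at the same SNPs. The groups were compared at the 7644 SNPs (6.73% of all) with missing calls in at most 20% of the 92 columns, which left 105873 SNPs outside. By its size this limit admits only SNPs with calls in at least 12 of the 30 plants. At 102753 of the SNPs outside (97.1%), 29 of the 30 plants had no call at all, while a median of 58 of the 60 well-called plants had one. A single call among the 29 was found at 327 SNPs outside, and 2 or more calls at 2793. The compared SNPs held 85.3% of all calls of the 29 plants, and together with the 2793 SNPs they held 99.8%. The sparsely called plants were therefore called at nearly the same small set of SNPs rather than at different ones.

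PaPe69 was the exception. It had 28010 calls outside the compared SNPs, whereas the other 29 had 434 (PaPe93) to 1817 (PaPe68), with a median of 1067. At 26490 of its SNPs (94.6%) no other sparsely called plant had a call. PaPe69 lay between the groups in its number of calls (34821 in all, against a highest of 9165 in PaPe68), and it is included in all values below unless stated.

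**Figure D1:**
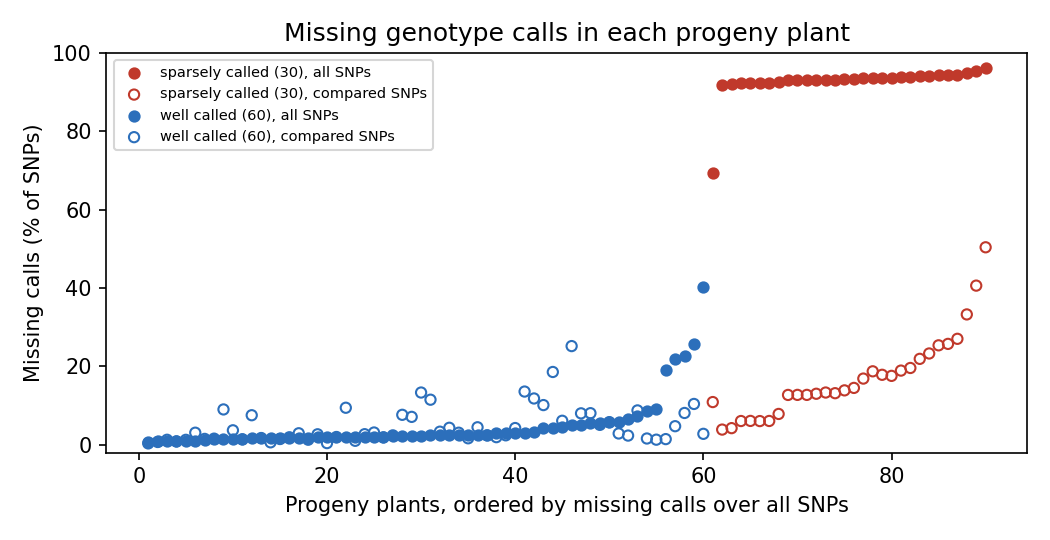
Missing calls (% of SNPs) in each of 90 progeny plants, ordered along the x axis by missing calls over all SNPs; filled points are all 113517 SNPs and open points the 7644 compared SNPs. The sparsely called plants lie at 69.3% to 96.3% over all SNPs and at 3.87% to 50.4% over the compared SNPs.

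The compared SNPs were spread unevenly over the chromosomes. Chromosome 2 held 3556 of them, which was 25.8% of its 13802 SNPs, and chromosome 19 held 5, or 0.306% of 1636. Missing calls at these SNPs ranged from 3.87% (PaPe68) to 50.4% (PaPe93) in the sparsely called plants, with a median of 14.2%. The well-called plants ranged from 0.340% (PaPe5) to 25.2% (PaPe35), with a median of 2.90%. The ranges overlapped, with 6 sparsely called plants above every well-called plant. A SNP had a call in 12 to 30 of the sparsely called plants, with a median of 26, and all 30 were called at 1583 SNPs. No call was missing in any of the 92 columns at 1129 SNPs. Since which SNPs a plant has called belongs to the choice of the groups, values per plant are given at the 7644 SNPs and again at the 1129, where every plant has a call at the same SNPs. The label of the genotype data names imputation, and which calls were imputed, also at the 1129 SNPs, is unknown.

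Heterozygosity at the compared SNPs did not differ between the groups beyond the spread between plants. At the 7644 SNPs the heterozygous share of calls ranged from 14.7% (PaPe93) to 36.6% (PaPe68) in the sparsely called plants, with a median of 24.6%. In the well-called plants it ranged from 12.7% (PaPe35) to 34.1% (PaPe64), with a median of 23.6%. Only PaPe68 and PaPe18 (35.9%) lay above every well-called plant, and no sparsely called plant lay below all of them. The means were 25.1% ± 5.12 (SD, n = 30) and 23.4% ± 4.78 (SD, n = 60), and a permutation test over plants gave p = 0.108 for the difference of 1.77 percentage points (adjusted p = 0.214 over the 12 tests per plant). At the 1129 SNPs the medians were 27.4% and 27.6%, and the difference of 0.17 points had a permutation p of 0.794. The direction turned under stricter limits on missing calls, to -0.31 points with at most 10% missing columns per SNP and to -0.43 points with at most 20% missing in each group.

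Within each group, however, the heterozygous share fell steeply with missing calls at the compared SNPs. Across the 30 sparsely called plants Pearson's r between missing calls at the compared SNPs and the heterozygous share was -0.89 and the rank correlation (Spearman's rho) -0.94, each with a permutation p of 1e-05 (adjusted p = 1.5e-05 over 18 coefficients). This p is the smallest that 100000 permutations can give. Without PaPe93 and PaPe47, which lay farthest from the median, the value was r = -0.90. PaPe93, PaPe47 and PaPe92, with 50.4%, 40.6% and 27.0% missing, had the lowest heterozygous shares of 14.7%, 17.8% and 18.8%. PaPe68 and PaPe65, with 3.87% and 4.24% missing, had 36.6% and 33.0%. In the 60 well-called plants r was -0.80 and rho -0.83 (permutation p = 1e-05 for both), and without the plants farthest from the median r was -0.79.

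The relation was as strong where every plant was called at the same SNPs. At the 1129 SNPs with no missing call, the heterozygous share against missing calls at the 7644 SNPs had r = -0.89 and rho = -0.88 in the sparsely called plants, and r = -0.82 without the plants farthest from the median. In the well-called plants the values were r = -0.81 and rho = -0.72 (permutation p = 1e-05 for all, adjusted p = 1.5e-05). PaPe93, at 16.4%, had the lowest heterozygous share at these SNPs of all 90 progeny, and PaPe18, at 34.5%, the highest. Against missing calls over all SNPs, the sparsely called plants had rho = -0.91 (permutation p = 1e-05) but r = -0.18 (permutation p = 0.335). Without PaPe69 and PaPe93, which were left out only together, r was -0.94. PaPe93 had the most missing calls (96.3%) and the lowest heterozygous share of the group, along the falling trend. PaPe69 lay apart from the group, with 69.3% missing and 24.3% heterozygous calls. The share of the well-called plants at the 7644 SNPs did not fall by that measure, with r = 0.31 (permutation p = 0.0171, adjusted p = 0.0237) and rho = -0.08 (permutation p = 0.523). Without PaPe6 and PaPe87 r was 0.20. At the SNPs outside the compared set, however, their heterozygous share fell steeply by that measure, with r = -0.81 and rho = -0.93 (permutation p = 1e-05 for both).

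With 5% to 10% and with 10% to 20% missing calls, the median heterozygous share was higher in the sparsely called plants. This description was chosen after the values were seen and was not tested. With 5% to 10% missing at the compared SNPs, 5 sparsely called plants had 29.1% to 35.9% heterozygous calls (median 30.8%) and 12 well-called plants had 16.5% to 23.9% (median 20.4%). With 10% to 20% missing, 15 sparsely called plants had a median of 24.8% and 7 well-called plants a median of 16.5%. At the 1129 SNPs the medians of the same plants were 29.9% against 25.5%, and 27.4% against 22.8%. The plants with 5% to 10% missing did not overlap between the groups on either set of SNPs. Those with 10% to 20% missing did, at 22.2% to 26.9% against 13.8% to 24.3%. At the 1129 SNPs they had 24.8% to 29.8% against 21.1% to 25.7%. Below 5% missing, PaPe65 (33.0%) lay under and PaPe68 (36.6%) above PaPe64 (34.1%), the highest of all well-called plants. At the 1129 SNPs both lay under PaPe64 (31.3% and 29.9% against 31.4%), again the highest well-called plant. Over all well-called plants, whatever their missing calls, the medians were 23.6% at the compared SNPs and 27.6% at the 1129. With 5% to 10% missing, the sparsely called plants lay below their group's median of missing calls and the well-called plants above theirs.

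**Figure D2:**
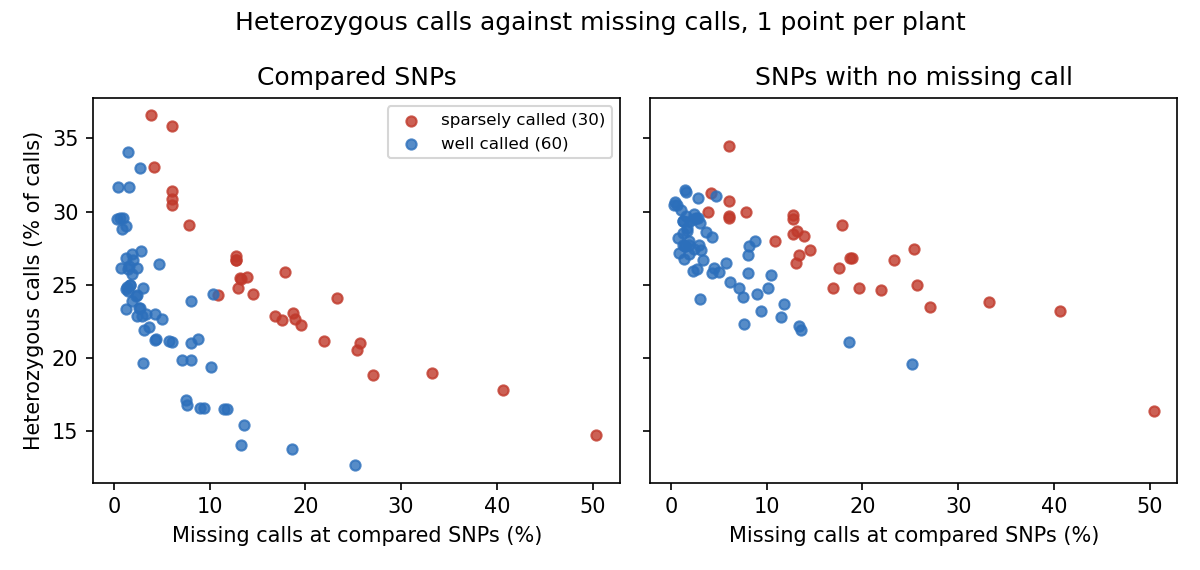
Heterozygous calls (% of calls) against missing calls at the compared SNPs (%), 1 point per plant, at the 7644 compared SNPs (left) and at the 1129 SNPs with no missing call (right). In both groups the share falls with missing calls (r = -0.89 and -0.80 on the left, -0.89 and -0.81 on the right).

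Heterozygosity was then split by the calls of the parents. At the 3386 SNPs where Pa and Pe were opposite homozygotes, the heterozygous share per plant was 19.5% (PaPe93) to 48.8% (PaPe68) in the sparsely called plants and 16.6% (PaPe35) to 45.2% (PaPe64) in the well-called plants, with medians of 32.6% and 32.0%. Every plant in both groups thus had fewer than 50% heterozygotes at SNPs where the parental calls allow nothing else. At the 1145 SNPs heterozygous in Pa only, the medians were 24.5% and 23.1%, and at the 1787 SNPs heterozygous in Pe only they were 21.3% and 21.0%. At the 1058 SNPs where both parents had the same homozygote, so that no heterozygote is possible, they were 7.80% and 6.91%, and at the 28 SNPs heterozygous in both parents they were 32.0% and 34.0%. A parent was not called at the remaining 240 SNPs. None of these 5 classes passed the test between the groups (permutation tests over plants, lowest p = 0.0532 and adjusted p = 0.128, for SNPs heterozygous in Pa only). Without the 5 well-called plants with over 10% missing calls, the difference at those SNPs was 2.51 points, with an adjusted p of 0.0450 by the permutation test.

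Over all these classes the parents allowed 57.9% of calls in the median sparsely called plant and 57.8% in the median well-called plant (permutation p = 0.625). The lowest shares were 50.01% in PaPe93 and 49.2% in PaPe35, and the highest 65.1% in PaPe68 and 64.0% in PaPe64. In each group the plants with the lowest and the highest allowed share were those with the lowest and the highest heterozygous share.

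At SNPs with opposite parental homozygotes the same SNPs were short of heterozygotes in both groups. The median SNP had 28.6% heterozygous calls in the sparsely called plants and 25.5% in the well-called plants, and across the 3386 SNPs the shares had r = 0.93, where SNPs are linked and are not independent. No heterozygote was called at 507 SNPs in the sparsely called plants and at 360 in the well-called plants, of which 281 were shared (55.4% and 78.1% of each). At 128 and 137 SNPs at least 90% of calls were heterozygous, and 93 of these were shared. Between these ends the groups differed most at SNPs with above 0% to 10% heterozygous calls, which numbered 399 (11.8%) in the sparsely called and 652 (19.3%) in the well-called plants. A SNP with few heterozygotes falls more easily into the bin with none when fewer plants are called. The counts in that bin and in the bin above 0% to 10% therefore depend on group size. The bin above 10% to 50% held 50.3% and 46.6% of SNPs.

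**Figure D3:**
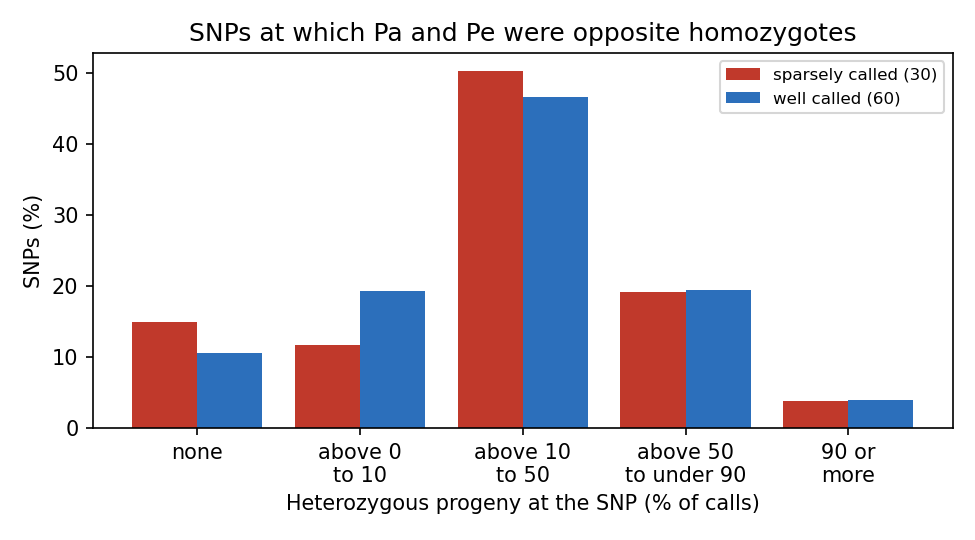
Share of 3386 SNPs (%) by the heterozygous share of progeny calls at the SNP, where Pa and Pe were opposite homozygotes; red bars are the 30 sparsely called plants and blue bars the 60 well-called plants. In 3.78% and 4.05% of SNPs at least 90% of calls were heterozygous, and in 14.97% and 10.6% none was. The share with none depends on the number of plants called.

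The share of Pe alleles was close in both groups. At opposite-homozygote SNPs the Pe allele made up 45.8% (PaPe1) to 50.3% (PaPe38) of alleles in the sparsely called plants, with a median of 48.5%. The well-called plants ranged from 46.2% (PaPe34) to 52.7% (PaPe74), with a median of 48.2%, and the means differed by 0.0909 points (permutation p = 0.712, a test added after the data were seen). The homozygote of Pa took a median of 35.4% of these calls in the sparsely called plants, and that of Pe 32.3%.

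Segregation at SNPs heterozygous in 1 parent was tested against 1:1 within each group by exact binomial tests. In the sparsely called plants 1129 of 2758 SNPs (40.9%) departed from 1:1 at an adjusted p under 0.05, and 1118 of them had too few heterozygotes. In the well-called plants it was 2022 of 2931 (69.0%), with 2004 short of heterozygotes. At the SNPs with no missing call the shares were lower, at 81 of 366 (22.1%) and 127 of 370 (34.3%). The groups differ in size, so these counts do not compare the strength of the departure. Heterozygotes made up 29.3% of the allowed calls in the sparsely called plants and 26.5% in the well-called plants, and 16.7% and 18.5% of calls were of the class that the parents do not allow. Of the 2758 SNPs tested in both groups, 1032 departed in both, which was 91.4% of those in the sparsely called and 55.6% of the 1856 in the well-called plants. The 91.4% is to be set beside the 1856 of these 2758 SNPs that departed in the well-called plants. All 1032 were on the same side of 1:1. Nearly all departing SNPs of each group were short of heterozygotes, so this agreement of side was nearly fixed in advance. Across these SNPs the heterozygous share of allowed calls had r = 0.79 between the groups.

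The most frequent pair of genotype classes at a SNP was mostly the same in both groups. It was a pair of opposite homozygotes at 48.2% of SNPs in the sparsely called plants and at 49.4% in the well-called plants, and a homozygote with the heterozygote at 51.2% and 50.5%. The pair was of the same kind in both groups at 85.0% of the 7644 SNPs.

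Allele frequencies were then compared SNP by SNP, with an exact permutation test of the minor allele dosage (0, 1 or 2 copies) and Fisher's exact test of heterozygous against homozygous calls. Of 7644 SNPs, 11 (0.144%) differed in dosage at an adjusted p under 0.05, with the minor allele more frequent in the sparsely called plants at 9 and less frequent at 2. The minor allele was set over all columns, mostly by calls of well-called plants, so this direction is not independent of the groups. The 11 SNPs lay at 7 places more than 1 kb apart. Only 1 SNP (0.0131%) differed in heterozygosity. Before adjustment 500 SNPs (6.54%) had an exact dosage p under 0.05 and 322 (4.21%) an exact heterozygosity p under 0.05. Across SNPs the minor allele frequencies of the groups had r = 0.69 and the heterozygous shares r = 0.91. The median absolute difference was 0.0615 in frequency and 4.97 percentage points in heterozygosity.

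The 11 SNPs were thinly called. They had calls in 12 to 24 of the sparsely called plants, with a median of 14, against a median of 26 over all compared SNPs. Among the 621 SNPs called in 12 to 15 sparsely called plants, 15.5% had an exact dosage p under 0.05 and 7 passed after adjustment. Among the 2824 SNPs called in 26 to 29 of them it was 4.28%, and among the 1583 called in all 30 it was 5.62%, with 0 after adjustment in either set. At the 1129 SNPs with no missing call 0 passed either exact test, with 70 under 0.05 before adjustment for dosage and 29 for heterozygosity.

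The frequencies followed the same gradient. At SNPs called in 12 to 15 sparsely called plants the mean minor allele frequency was 0.333 in the sparsely called and 0.274 in the well-called plants, and the heterozygous share 10.9% and 6.22%. Which allele is the minor one was set there mostly by calls of well-called plants. At SNPs called in all 30 plants the frequencies were 0.309 in both groups and the heterozygous shares 28.96% and 29.4%. The correlation of minor allele frequencies between the groups was 0.40 at the first set of SNPs and 0.81 at the second, and that of heterozygous shares 0.37 and 0.97. The groups were therefore closest at the SNPs called in all 30 sparsely called plants, where the frequency of that group also rests on more plants. The median number of well-called plants with a call was 60 at both sets of SNPs. At the first set this was nearly fixed by the limit of 20% missing columns per SNP. At SNPs called in 16 to 20, 21 to 25 and 26 to 29 sparsely called plants it was 57, 54 and 58.

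**Figure D4:**
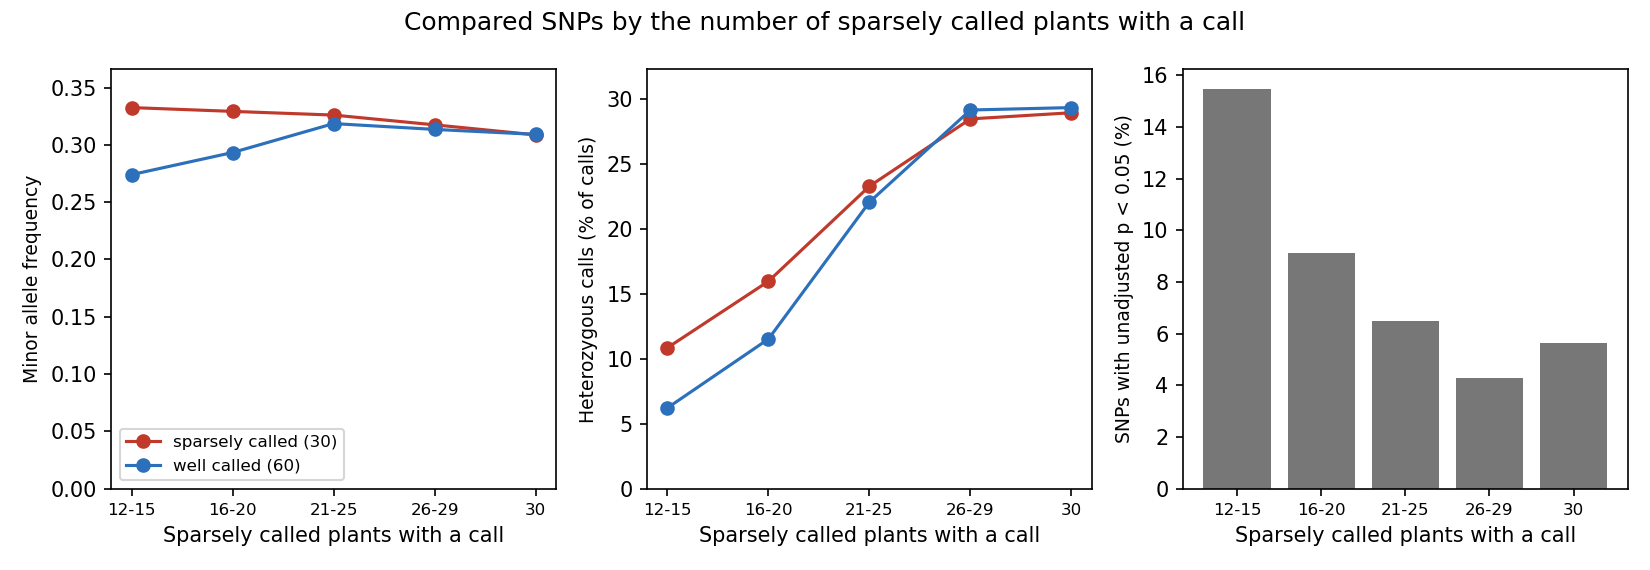
Mean minor allele frequency, heterozygous calls (% of calls) and the share of SNPs with an unadjusted exact dosage p under 0.05 (%), for the 7644 compared SNPs grouped by how many of the 30 sparsely called plants had a call. The frequencies of 0.333 and 0.274 in the group of SNPs with 12 to 15 calls close to 0.309 in both at 30 calls.

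The SNP with the lowest p in both tests was S1_109516740 on chromosome 1 at position 109516740, with alleles T and C, called TC in both parents. All 60 well-called plants were heterozygous there. Of 17 sparsely called plants with a call, 12 were TT and 5 were TC (exact dosage p = 1.68e-10, adjusted p = 1.29e-06, and the same values by Fisher's exact test of heterozygotes). It was the only SNP past the threshold in both tests.

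S8_24694197, on chromosome 8 at position 24694197, had alleles C and G and was CC in both parents. Among 12 sparsely called plants with a call, 3 were CC, 1 was heterozygous and 8 were GG, whereas 57 of the 60 well-called plants were CC and 3 were GG (exact dosage p = 4.98e-07, adjusted p = 0.00127). Neither a heterozygote nor GG is possible from these parental calls.

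At S18_4005810, on chromosome 18 at position 4005810, the parents were CC (Pa) and CT (Pe). The sparsely called plants had 7 CC, 6 CT and 10 TT calls and the well-called plants 42, 8 and 3 (adjusted p = 0.0164 by the exact dosage test). At S2_29790848, on chromosome 2 at position 29790848, the C/T classes numbered 5, 2 and 6 in the sparsely called and 57, 1 and 2 in the well-called plants (adjusted p = 0.0181 by the exact dosage test). S16_6298577, on chromosome 16 at position 6298577, went the other way, with 14 GG, 10 GA and 0 AA calls against 10, 18 and 22 (adjusted p = 0.0249 by the exact dosage test).

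The next SNPs by heterozygosity did not pass after adjustment. S7_26396075 had 6 heterozygotes in 13 calls against 1 in 60, and S14_4412128 had 9 in 22 against 2 in 56 (exact adjusted p = 0.137 for both). S2_224076674, called in all 30 sparsely called plants, had 8 heterozygotes against 41 in 58 (exact adjusted p = 0.137). S2_118481811 had 8 in 15 against 5 in 60 (exact adjusted p = 0.284).

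None of the 10 SNPs that the study associated with flower color passed either test between the groups, and 0 of them had an exact p under 0.05 before adjustment. Over all 7644 SNPs, 0.144% passed for dosage and 0.0131% for heterozygosity. Before adjustment 6.54% and 4.21% had an exact p under 0.05. For a set of 10 SNPs a count of 0 is close to these shares. The lowest exact p was 0.213 for dosage, at S5_45647571, and 0.310 for heterozygosity, at S5_23606179. At S5_10776122 the sparsely called plants had 15 GG and 15 GT calls and the well-called plants 29 and 31. At S9_14147427 the CC, CT and TT classes numbered 16, 13 and 1 against 33, 27 and 0, and at S5_24984925 the CC, CA and AA classes numbered 16, 3 and 11 against 31, 6 and 21. All 30 sparsely called plants had a call at each of these 3 SNPs. Pa was called CC at S9_14147427 and S5_24984925, and Pe was called CT and CA, so the TT and AA calls there are not possible from the parental calls.

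S2_195281745 had 17 GG and 12 CC calls against 33 and 27, with 0 heterozygotes in either group although Pe was called GC. At S5_43813578 the TT and GG calls numbered 13 and 8 against 26 and 30, at S5_45345022 the TT and AA calls 12 and 12 against 36 and 22, at S5_43867748 the AA and TT calls 11 and 12 against 30 and 29, and at S5_46455357 the AA and CC calls 12 and 10 against 33 and 27. All of these had 0 heterozygotes in both groups. The heterozygosity test could therefore show no difference at these SNPs or at S2_195281745. At S5_45647571 the CC, CT and TT calls numbered 12, 13 and 3 against 35, 21 and 4, and at S5_23606179 the AA, AT and TT calls numbered 11, 11 and 2 against 33, 18 and 6. Some of these calls are not possible from the parental calls. AA at S5_46455357 is excluded by CC in both parents. At S5_43867748 and S5_23606179 the parents were opposite homozygotes, which allow heterozygotes only. Pa was homozygous and Pe heterozygous at S2_195281745 (CC, GC), S5_43813578 (TT, TG) and S5_45647571 (CC, CT), so GG, GG and TT are not possible there. The largest difference in minor allele frequency among the 10 was 0.155, at S5_43813578 (0.381 against 0.536), where 21 of the sparsely called plants had a call.

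Over all 7644 SNPs the minor allele frequency per plant was higher in the sparsely called plants. It ranged from 0.305 (PaPe15) to 0.341 (PaPe18), with a median of 0.317, against 0.286 (PaPe83) to 0.325 (PaPe89) and a median of 0.308 in the well-called plants. Of the 30 plants 27 lay above the median of the well-called plants, and the means differed by 0.0108 (permutation p = 1e-05, adjusted p = 6e-05). At the 1129 SNPs the difference was 0.00400 (adjusted p = 0.371 by the permutation test), and with at most 10% missing columns per SNP it was 0.00273 (adjusted p = 0.585). The minor allele is defined over all columns, most of whose calls come from well-called plants.

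Relatedness was measured as the chance that an allele drawn from each of 2 plants differs. The distance to Pa ranged from 0.395 (PaPe69) to 0.424 (PaPe38) in the sparsely called plants, with a median of 0.411, and from 0.389 to 0.428 in the well-called plants, with a median of 0.404. The distance to Pe ranged from 0.432 to 0.458 (PaPe68), with a median of 0.442, and from 0.413 to 0.449, with a median of 0.437. Both means were higher in the sparsely called plants, by 0.00579 and 0.00666 (adjusted p = 0.00177 and 4.4e-04 by permutation tests over plants). At the 1129 SNPs the differences were -0.00106 and 0.00523 (adjusted p = 0.794 and 0.358 by permutation tests), and both calls also ended with at most 10% missing columns per SNP (adjusted p = 0.585 and 0.840 by permutation tests). Pa and Pe lay 0.657 apart, and all progeny were closer to Pa and to Pe than the parents were to each other.

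The sparsely called plants were no closer to each other than to the well-called plants. The mean distance was 0.407 within the sparsely called plants, 0.406 between the groups and 0.397 within the well-called plants. The first differed from the second by 0.00186 (permutation p = 0.131, adjusted p = 0.214) and from the third by 0.0105 (permutation p = 1e-05, adjusted p = 6e-05). Over the 1129 SNPs the means were 0.395, 0.392 and 0.387, and neither difference passed (adjusted p = 0.0953 by the permutation test for within sparsely called against within well-called plants). The latter call also ended with at most 10% missing columns per SNP (0.00430, adjusted p = 0.158), with at most 20% missing in each group (0.00371, adjusted p = 0.393) and with distance as a difference in dosage (0.00346, adjusted p = 0.402), all by permutation tests. The closest pair within the sparsely called plants was PaPe1 and PaPe69 at 0.354, and the farthest PaPe75 and PaPe92 at 0.459. The closest pair between the groups was PaPe29 and PaPe44 at 0.358, and within the well-called plants PaPe26 and PaPe63 at 0.354. The closest pairs were thus nearly equal, at 0.3544 among 435 sparsely called pairs and 0.3537 among 1770 well-called pairs. A lowest value drawn from more pairs tends to be lower.

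Linkage disequilibrium (LD), the squared correlation r2 of dosages, is given without a test because r2 is raised by a small number of plants. Over 3274 SNPs at 1 per 1 kb, the mean r2 up to 1 kb was 0.229 in the sparsely called and 0.179 in the well-called plants. From 1 to 50 kb it was 0.148 and 0.0956, from 500 to 5000 kb 0.0824 and 0.0438, and from 5000 to 10000 kb 0.0596 and 0.0247. Between chromosomes, over 140734 randomly drawn pairs, it was 0.0572 and 0.0193, the background level for SNPs on different chromosomes in groups of these sizes. The medians from 1 to 50 kb were lower, at 0.0582 and 0.0208. Median numbers of plants per pair of SNPs were 24 and 56 in that range.

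The LD of the groups ran in the same direction at short range. The correlation between the groups of the signed r of a pair of SNPs was 0.86 up to 1 kb, 0.74 from 1 to 50 kb, 0.70 from 50 to 500 kb, 0.48 from 500 to 5000 kb and 0.20 from 5000 to 10000 kb. Between chromosomes it was 0.02. Pairs of SNPs with r2 of at least 0.5 in the well-called plants were then looked up in the sparsely called plants, whose r2 had not chosen them. A pair also needed at least 10 plants called at both SNPs, and variation at both, in each group. On the same chromosome and 1 Mb or more apart there were 670 such pairs, with a median r2 of 0.575 in the sparsely called plants and the same sign at 99.9%. Of these, 62.1% reached r2 of 0.5 in the sparsely called plants. On different chromosomes there were 338, with a median r2 of 0.535, and 99.4% had the same sign, while 56.8% reached r2 of 0.5. These 338 were picked from all pairs between chromosomes, and not from the random draw of 140734 pairs that gave the correlation of 0.02. The total number of pairs searched is not given. Nor is the share of all pairs that reached r2 of 0.5 in the sparsely called plants, so the 62.1% and 56.8% have no base rate beside them. Why the 338 pairs were shared was not tested, and imputed calls cannot be told apart.

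**Figure D5:**
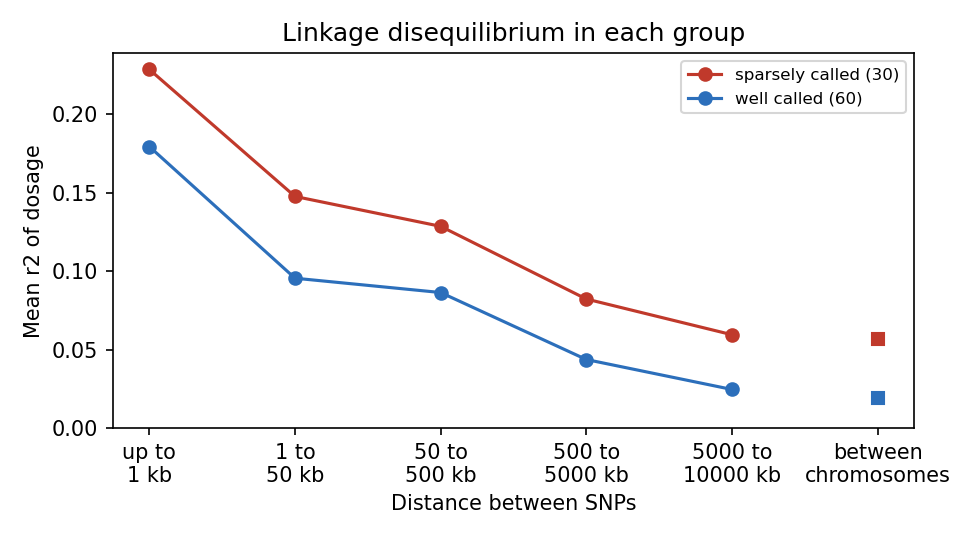
Mean r2 of dosage between SNPs by distance (circles, within chromosomes) and between chromosomes (squares), in 30 sparsely called and 60 well-called plants, at 3274 SNPs. The mean falls from 0.229 to 0.0596 and from 0.179 to 0.0247 with distance, with 0.0572 and 0.0193 between chromosomes.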

How the data were processed

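The authors mapped reads with Bowtie 2 and called SNPs with the TASSEL-GBS pipeline. They deposited 1 table of genotype letters for 92 plant columns. The genome build behind the positions is not given in the sources. The label of the deposited table names nearest-neighbor imputation and a filter on minor allele frequency, and which calls were imputed is unknown. The methods name a HiSeq2000 for the ApeKI libraries and the labels a HiSeq2500.

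From 115866 entries, those on chromosomes 1 to 19 that had 2 base alleles were taken (113517), and letters were read as dosages. Columns of unknown identity numbered 0. SNPs needed at least 10 called plants per group. The 12 tests per plant used 100000 two-sided permutations, and p-values were adjusted by the Benjamini-Hochberg method, over all SNPs for the tests per SNP. Named SNPs were the 10 associated with color and the 5 with the lowest p in each test, at most 1 per 100 kb, besides plants at the ends of a range. The members, lists and tests were chosen with earlier results of these data known. The dosage test per SNP and the test of the heterozygous share per plant were run on simulated genotypes. The distance, Fisher and binomial calculations were checked against separate calculations. The other steps were not tested on simulated data. Scripts ran in Python 3.11.15 with pandas 2.3.3, scipy 1.17.1 and numpy 2.4.6. Phenotypes were left out, and some plants are not reported here by name, though they are in all values.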

Additional observations from a re-analysis of the deposited data

Results flagged for a closer look

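PaPe69 had 28010 calls at SNPs outside the compared set, which no comparison between the groups used. It stood out as a signal in data left aside, since no other sparsely called plant had over 1817 calls there. At these SNPs 17.8% of its calls were heterozygous, against 16.1% (PaPe63) to 41.9% (PaPe55) in the well-called plants, with a median of 38.9%. The nearest well-called plants were PaPe89 at 16.6% and PaPe63, and the next was PaPe52 at 23.1%. At the compared SNPs PaPe69 had 24.3%. Its distance to the well-called plants at the outside SNPs was 0.391 to 0.468, with a median of 0.424, and the median among the well-called plants was also 0.424. The parents allowed 65.3% of its calls there, within the 64.1% to 71.0% of the well-called plants.

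A further 2793 SNPs outside the compared set had calls in 2 or more of the other 29 sparsely called plants, and they too were left out of every comparison. Heterozygous shares over all outside calls ranged from 4.62% (PaPe78) to 29.4% (PaPe68) in the 30 plants, with a median of 13.2%, and from 14.4% (PaPe63) to 32.2% (PaPe55) in the well-called plants, with a median of 27.0%. Of the 30 plants 16 lay below every well-called plant. The groups were called at different SNPs there, and the difference was not tested.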

How the results depend on the processing

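No paired analysis was possible because the plate numbers that the libraries share are not tied to plants, each of which has 1 column. Depth is unknown, so no limit from depth could be given. Of 148 repeats under other settings, 97 kept their direction and side of the threshold, or a value close to the main one. The settings with no missing call (1129 SNPs) and without 5 well-called plants were chosen after seeing the data. In the order of at most 10% missing columns (4320 SNPs), at most 20% missing in each group (5115 SNPs) and no missing call, these values changed. SNPs differing in dosage numbered 0, 0 and 0, and in heterozygosity 0, 0 and 0, with 198, 255 and 70, and 138, 169 and 29, under an unadjusted exact p of 0.05. The minor allele frequency difference was 0.00273, 0.00239 and 0.00400, that in distance to Pa 0.00264, 0.00183 and -0.00106, and that in distance to Pe 0.000845, 0.00180 and 0.00523. Within sparsely called minus within well-called, the distance difference was 0.00430, 0.00371 and 0.00763. All of these differences in frequency and distance missed the threshold. The share allowed by the parents differed by -0.74, -0.81 and -0.21 points. The heterozygous difference at opposite homozygotes was -0.96, -0.99 and -0.36 points, at SNPs with the same homozygote in both parents -0.0729, -0.0422 and -0.35, and at SNPs heterozygous in both parents 0.93, 1.15 and 7.50. With the first and second of these settings the heterozygous difference was -0.31 and -0.43 over all SNPs, and -0.36 and -0.52 at SNPs heterozygous in Pe only. SNPs departing from 1:1 numbered 630, 741 and 81 in sparsely called and 955, 1162 and 127 in well-called plants (35.9%, 36.9% and 22.1%, and 53.7%, 57.1% and 34.3% of those tested). At 1 SNP per 1 kb they numbered 579 and 924 (49.7% and 73.5%), and 6 SNPs differed in dosage. With heterozygotes as missing 5 SNPs differed in dosage, and with Fisher's exact test on allele counts, which takes the alleles of a plant as independent, 114 did. With distance as a difference in dosage, the difference to Pa was 0.00376, that within sparsely called minus between groups -0.000935, and that within sparsely called minus within well-called 0.00346, the first and last no longer past the threshold. Without 5 well-called plants the difference at SNPs heterozygous in Pa only was 2.51 points (adjusted p = 0.0450 by permutation). The median r2 from 1 to 50 kb was 0.0582 and 0.0208. The cause of these changes was not tested.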
